A study of Mus musculus with 44 samples.

Results

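The matricellular genes described here are the tenascins Tnc, Tnxb and Tnn, periostin (Postn), the thrombospondins Thbs1, Thbs2, Thbs3, Thbs4 and Comp, and spondin 1 (Spon1). They were chosen by gene symbol, with earlier results of these data known, and account for 10 of the 55486 genes in the table. Matricellular proteins are secreted into the extracellular matrix, where they tune how cells attach, spread and respond to growth factors, and most build little of the matrix scaffold themselves. Many of them are scarce in resting adult tissue and are made again during wound repair, fibrosis and tumor growth. Tenascin-C and periostin are widely used as marks of an activated stroma, tenascin-X is known instead as an organizer of collagen fibrils in loose connective tissue, and Thbs4 and Comp (thrombospondin 5) are best known from tendon and cartilage.

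All fibroblasts came from mammary glands or mammary tumors of En1-Cre;mTmG female mice, in which cells of the En1 lineage carry membrane GFP and all other cells membrane Tomato. Each mouse had received a transplant of mammary tissue into a fat pad that was not cleared, so that its own epithelium was still present. The transplant was control tissue (from WapCre-negative donors, called wildtype in the labels), WB1P tissue (WapCre;Brca1F/F;Trp53F/F, a model of triple-negative breast cancer) or WB1P-Myc tissue (the same alleles with Col1a1invCAG-Myc-IRES-Luc). The Wap promoter drives Cre in mammary epithelium, so the tumor alleles were recombined in the transplanted epithelium and not in fibroblasts of the host. The study found tumor cells without EpCAM in WB1P-Myc tumors and, among CD49f-positive cells, in WB1P tumors. In all tumors of its epithelial transplants into Tomato-positive hosts it also reported cells without Tomato and without epithelial markers. Whether any of these kinds of cells entered the cells sorted here was not tested. By the study's methods, donors were a few weeks old and recipients were around weaning age at transplantation, and the age at collection is not given in the sources used here. Fibroblasts were sorted as cells without EpCAM, CD49f, CD31 and CD45 on their surface, and were then divided by GFP and by CD26 into En1+ (GFP only), double-, CD26+ (CD26 only) and double+ populations. Fibroblasts of control mice are called normal fibroblasts (NFs) and those of tumor mice cancer-associated fibroblasts (CAFs).

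The data comprised 44 libraries of stranded mRNA, 12 from 3 control mice, 16 from 5 WB1P mice and 16 from 5 WB1P-Myc mice, with 5790599 to 15240328 counts per library. Each control label holds a pair of animal numbers and was counted as 1 mouse, since nothing says how the pair was combined. Counts were summed per mouse and CD26 class, which gave 3 sums of each class for control, 5 CD26- and 4 CD26+ sums for WB1P, and 5 of each class for WB1P-Myc. Dpp4, the gene of CD26, was present at 233.5 to 804.5 CPM (counts per 1e+06 counts, on TMM-scaled library sizes) in the CD26+ sums and at no more than 15.3 CPM in the CD26- sums. WB1P mouse 10 contributed only an En1+ library, and WB1P-Myc mice 23 and 69 are marked 8x8 in the labels, a tumor size the study uses for a stage before the end stage. Markers of fibroblasts were abundant in every sum (19418 to 56091 CPM over 5 genes). The CD26- CAFs stood apart by pericyte genes: 6 of them summed to 1567 to 8149 CPM there, against 194 to 361 CPM in CD26- NFs and 146 to 389 CPM in CD26+ fibroblasts. In bulk libraries, fewer cells of a type and less RNA per cell cannot be told apart. Control mouse 49 also stood apart, with 269 CPM of skeletal muscle genes in its CD26- sum against 58.5 and 71.6 CPM in the other control mice.

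The promoters of 4 members are shown because Tnc, Tnn and Thbs4 were higher in every CAF sum than in NFs, while Postn was abundant in both. The windows are the 250 bases before a RefSeq start site on GRCm38 (245 for Tnn, whose last bases fall within the gene as listed), read on the strand of the gene. RefSeq listed a start site for 7 of the 10 members, and for 6 of them a window outside the gene was left, since the start site of Tnxb lies within the gene as listed. Capitals mark matches, on either strand, to 5 short motifs. The AP-1 motif was spelled as TGANTCA, the TEAD motif was searched with the letters GGAATG, and a TATA box was read where the window held TATAAA. The CCAAT box is named by its own letters, and an Sp1 box was spelled as GGGCGG.
Tnc, chr4:64047016-64047265, minus strand: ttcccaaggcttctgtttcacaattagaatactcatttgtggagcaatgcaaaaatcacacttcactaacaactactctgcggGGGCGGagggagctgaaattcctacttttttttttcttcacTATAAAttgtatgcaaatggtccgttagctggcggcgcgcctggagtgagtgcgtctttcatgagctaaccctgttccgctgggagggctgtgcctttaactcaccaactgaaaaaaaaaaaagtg
Tnn, chr1:160153581-160153825, minus strand: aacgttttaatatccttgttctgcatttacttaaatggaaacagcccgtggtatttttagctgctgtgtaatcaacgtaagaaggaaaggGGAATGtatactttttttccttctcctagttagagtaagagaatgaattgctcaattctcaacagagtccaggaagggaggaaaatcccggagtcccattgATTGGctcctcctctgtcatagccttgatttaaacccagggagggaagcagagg
Thbs4, chr13:92794819-92795068, minus strand: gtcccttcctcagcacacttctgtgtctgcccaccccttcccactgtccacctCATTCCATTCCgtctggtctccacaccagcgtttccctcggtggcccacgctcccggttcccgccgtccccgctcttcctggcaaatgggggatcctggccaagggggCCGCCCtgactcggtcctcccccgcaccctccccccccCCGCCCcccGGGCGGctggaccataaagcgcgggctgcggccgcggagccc
Postn, chr3:54360857-54361106, plus strand: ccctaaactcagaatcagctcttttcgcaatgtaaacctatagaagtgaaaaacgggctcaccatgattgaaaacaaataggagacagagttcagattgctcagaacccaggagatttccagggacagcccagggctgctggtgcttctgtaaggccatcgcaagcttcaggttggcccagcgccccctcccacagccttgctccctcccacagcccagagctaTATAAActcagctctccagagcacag
The Postn window held a TATA box match 26 bases before the start site, the usual place of that motif, and the Tnc window held it 126 bases before. RefSeq listed another start site for Postn at 54359267, and the window before it, not shown, held no match to the 5 motifs. Another for Tnc, at 64046936, has a window that lies within the one shown. The TEAD motif occurred 1 time in the Tnn window and 2 times, overlapping, in the Thbs4 window, and Thbs4 held 3 matches to the Sp1 box. None of the 4 windows held the AP-1 motif. Over the windows of all 32851 promoters, the AP-1 motif was present in 6.75%, TEAD in 12.6%, the TATA box in 12.4%, the CCAAT box in 33.8% and the Sp1 box in 32.7%. No motif was shared by the Tnc, Tnn and Thbs4 windows. A match describes these letters only and is not a measured binding site.

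Among the tenascins, Tnc encodes tenascin-C, a hexameric glycoprotein that weakens cell adhesion to fibronectin (ENSMUSG00000028364, chromosome 4, 63959785 to 64047015 on GRCm38, minus strand). In CD26- NFs it measured 626.6, 57.4 and 449.1 CPM, and in CD26+ NFs 1124, 9.37 and 382.9 CPM (control mice 82, 49 and 44 in this order). The 5 WB1P mice had 5901, 9615, 9226, 8018 and 6696 CPM in CD26- CAFs (mice 10, 93, 12, 14 and 35), and the 5 WB1P-Myc mice 2282, 5670, 2759, 3889 and 2841 CPM (mice 21, 67, 95, 23 and 69). Every CAF sum of either class lay above every NF sum of the same class. The CD26- CAFs were higher than the NFs by a log2 fold change of 4.38 in WB1P (SE 0.91, FDR 0.000733) and of 3.21 in WB1P-Myc (SE 0.85, FDR 0.00553). CD26+ CAFs had 3389 ± 734 CPM in WB1P (SD, n = 4) and 2261 ± 636 CPM in WB1P-Myc (n = 5), with log2 fold changes of 2.75 (SE 0.84, FDR 0.0159) and 2.16 (SE 0.80, FDR 0.0399). All FDRs are from edgeR's quasi-likelihood test, adjusted by Benjamini-Hochberg over the 16601 genes tested, and a gene was called at an FDR under 0.05. In CD26+ CAFs the call of Tnc was lost without control mouse 44 in WB1P (FDR 0.0741) and without any of 6 mice in WB1P-Myc (control 44, WB1P 14 and WB1P-Myc 21, 67, 23 and 69, FDR 0.0528 to 0.136). It was also lost in fits of only the groups compared (0.103 and 0.131) and, in WB1P-Myc, without the mice marked 8x8 (0.0832) and with double+ libraries alone (0.0588).

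Tnxb encodes tenascin-X, whose loss causes a hyperelastic connective tissue disorder (ENSMUSG00000033327, chromosome 17, 34660457 to 34719815). It measured 1653, 2975 and 1577 CPM in CD26- NFs. In CD26- CAFs of WB1P mice it had fallen to 60.5, 1023, 277.3, 398.7 and 556.3 CPM, all below every control. The log2 fold change was -2.16 (SE 0.58, FDR 0.00636), and without control mouse 49 the FDR was 0.0505. The lowest value came from mouse 10, which gave only an En1+ library and held the most pericyte transcripts of its group (4562 CPM). In WB1P-Myc the CD26- CAFs ranged from 236.2 to 2621 CPM and overlapped the NFs, with a log2 fold change of -0.67 (SE 0.58, FDR 0.383). There the lowest Tnxb came from mouse 23, which held 3393 CPM of pericyte transcripts. Mouse 21 held the most of these (8149 CPM), with Tnxb at 1110 CPM. Tnxb stayed high in CD26+ cells of all 3 transplants, at 4343 ± 637 CPM in NFs (n = 3), 4578 ± 1388 CPM in WB1P (n = 4) and 4334 ± 673 CPM in WB1P-Myc (n = 5). The part of the pericyte transcripts in the lower Tnxb of CD26- CAFs was not tested.

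Tnn encodes tenascin-N, also called tenascin-W, which in the adult is found mainly in periosteum and other skeletal niches and in tumor stroma (ENSMUSG00000026725, chromosome 1, 160085029 to 160153580). Over all control libraries it had 3 counts in CD26- and 3 counts in CD26+ NFs, with no more than 2 in a library. In WB1P CD26- CAFs it measured 621.1, 841, 245.2, 596 and 535.5 CPM, and in WB1P-Myc CD26- CAFs 59.3, 133.5, 16.9, 5.84 and 85.3 CPM. Every CAF sum was far above every NF sum, and the gene was called in all 4 comparisons with control (FDR 2.24e-07 and 4.95e-06 in CD26- cells, 1.08e-05 and 6.27e-05 in CD26+ cells, for WB1P and WB1P-Myc). The pooled rate in CD26- cells was 14303 times that of NFs in WB1P (95% exact interval 4894 to 69359) and 1883 times in WB1P-Myc (644 to 9134). In CD26+ cells the ratios were 1263 (432 to 6128) and 435 (149 to 2112). These intervals cover counting error only, and the fitted fold changes of a gene at the floor are not given.

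The plot of CPM by mouse shows these values for all 10 genes.

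**Figure D1:**
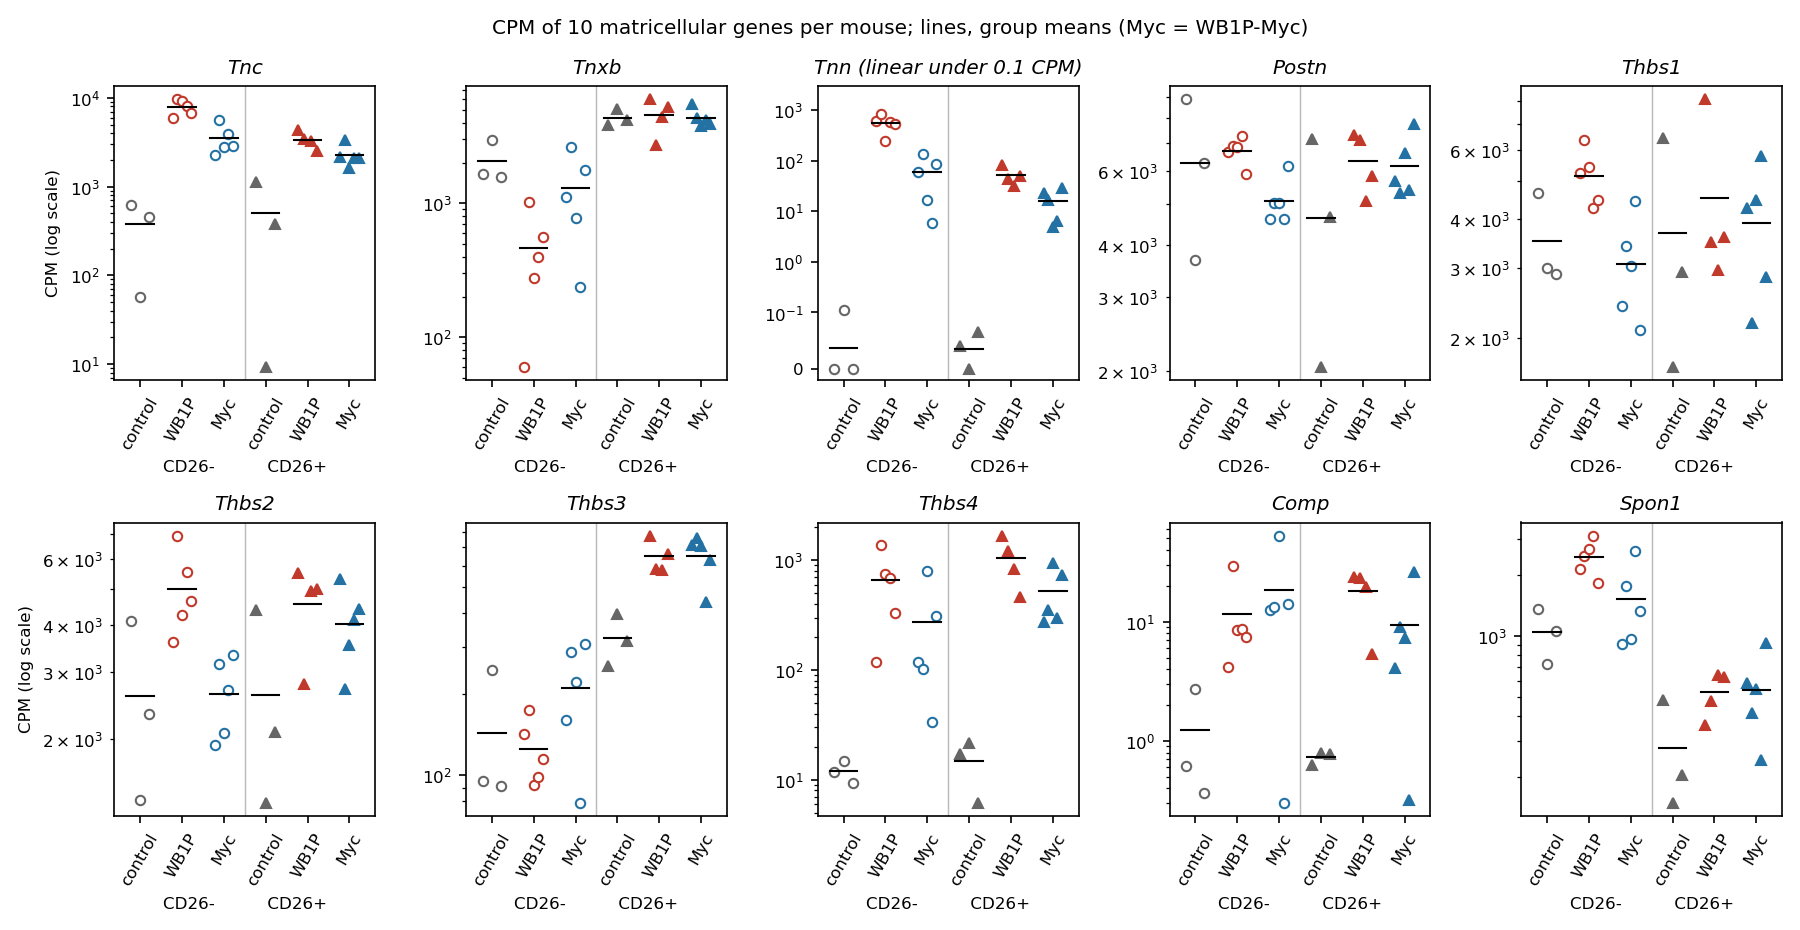
CPM of each member (y axis, log scale, linear under 0.1 CPM for Tnn) in the sums of control, WB1P and WB1P-Myc mice (x axis), with CD26- sums as open circles and CD26+ sums as filled triangles. Each point is 1 mouse and each line a group mean. Tnc, Tnn and Thbs4 lie higher in every CAF sum than in any NF sum of the same class, whereas Postn stays between 2047 and 8887 CPM throughout.

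Thrombospondins 1 and 2 are trimers known as inhibitors of angiogenesis, and thrombospondin 1 can also activate latent TGF-beta. Thbs1 (ENSMUSG00000040152, chromosome 2, 118111876 to 118127133) and Thbs2 (ENSMUSG00000023885, chromosome 17, 14665500 to 14694235) were abundant in NFs. In NFs, Thbs1 averaged 3526 ± 995 CPM (CD26-, n = 3) and 3681 ± 2452 CPM (CD26+, n = 3), and its CAF means lay between 3080 and 5152 CPM. It was not called in any comparison with control. Thbs2 measured 4104, 1379 and 2325 CPM in CD26- NFs and 3618, 6914, 4265, 5529 and 4638 CPM in WB1P CD26- CAFs. It was higher there by a log2 fold change of 0.94 (SE 0.37), at an FDR of 0.0498 that rose over 0.05 under 14 of the 21 alternatives run, among them without control mouse 49 (0.184) or 44 (0.147). In WB1P-Myc the CD26- CAFs had 2634 ± 630 CPM and lay within the range of the NFs.

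Thbs3, Thbs4 and Comp belong to the pentameric thrombospondins, which bind collagens and help to arrange them. Thbs4 (ENSMUSG00000021702, chromosome 13, 92751590 to 92794818) had 11.7, 14.8 and 9.31 CPM in CD26- NFs and 17.1, 21.5 and 6.12 CPM in CD26+ NFs. It measured 118.7, 1389, 756.8, 689.1 and 331.8 CPM in WB1P CD26- CAFs and 1671, 1219, 838.3 and 467.7 CPM in WB1P CD26+ CAFs (mice 93, 12, 14 and 35). In WB1P-Myc it measured 118.7, 101.8, 801.6, 33.6 and 308.6 CPM in CD26- and 272.8, 351, 947, 299.3 and 737.6 CPM in CD26+ CAFs. All 19 CAF sums exceeded all NF sums, but the CAFs themselves differed widely between mice. The log2 fold changes were 5.78 (SE 1.01, FDR 0.000149) and 4.51 (SE 0.95, FDR 0.000961) in CD26- cells and 6.14 (SE 1.04, FDR 0.000204) and 5.13 (SE 0.98, FDR 0.00061) in CD26+ cells, for WB1P and WB1P-Myc.

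Comp (ENSMUSG00000031849, chromosome 8, 70373558 to 70382066) was much less abundant. It had 0.616, 2.70 and 0.364 CPM in CD26- NFs, and 4.18, 29.1, 8.47, 8.68 and 7.47 CPM in WB1P CD26- CAFs. In WB1P-Myc CD26- CAFs it had 12.7, 13.4, 52.5, 0.302 and 14.1 CPM, so that mouse 23 lay below every control and the other 4 mice above. Mouse 23 was also below every control in CD26+ cells, at 0.322 CPM. The log2 fold changes were 3.24 (SE 1.16, FDR 0.0333) and 3.91 (SE 1.2, FDR 0.0142) in CD26- cells and 4.60 (SE 1.28, FDR 0.00896) and 3.67 (SE 1.21, FDR 0.0231) in CD26+ cells. These calls were lost in the limma-voom fit with mouse as a random block (FDR 0.078 to 0.286) and, except for WB1P CD26+ cells, without control mouse 82 or 44 (FDR 0.0665 to 0.139). The call was also lost without WB1P mouse 93 in WB1P CD26- cells (0.0888) and without control mouse 49 (0.0634) or WB1P-Myc mouse 69 (0.0718) in WB1P-Myc CD26+ cells. A summed level of 5 tendon and cartilage markers was 4.49 to 12.9 CPM in CD26- NFs and 3.73 to 79.6 CPM in CD26- CAFs. Acan was the most abundant of them in the highest sums. In CD26+ cells the sum was 1.1 to 2.5 CPM in NFs and 2.97 to 41.1 CPM in CAFs. In CD26- cells of control, WB1P and WB1P-Myc mice, Acan had medians of 0.994, 22.4 and 9.91 CPM. Scx had medians of 0.199, 1.61 and 1.6 CPM there. Tnmd went the other way, at 4.49, 2.28 and 1.89 CPM. The part of these markers in Comp and Thbs4 was not tested.

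Thbs3 (ENSMUSG00000028047, chromosome 3, 89215180 to 89226837) shares 318 bp of exon with Mtx1 on the other strand, and since the strand setting of the counting is not given in the sources used here, some of its reads could belong to Mtx1. It measured 254.5, 396.4 and 315.9 CPM in CD26+ NFs against 773.2, 582.7, 577.8 and 664.8 CPM in WB1P and 713.6, 760, 707.9, 440.6 and 628.8 CPM in WB1P-Myc CD26+ CAFs. NFs and CAFs did not overlap, and the log2 fold changes were 1.01 in both models (SE 0.37, FDR 0.0413 and SE 0.36, FDR 0.0343). Without control mouse 44 the FDR was 0.106 and 0.0916, and without control mouse 82 it was 0.134 and 0.122. Leaving out WB1P mouse 93, 12, 14 or 35 or WB1P-Myc mouse 67 or 95 raised the FDR for WB1P to between 0.0541 and 0.0863, and leaving out WB1P mouse 35 or WB1P-Myc mouse 21, 67 or 95 raised that for WB1P-Myc to between 0.0529 and 0.0716. In CD26- cells Thbs3 had 143.7 ± 87.7 CPM in NFs, 124.7 ± 34.2 CPM in WB1P and 210.7 ± 93.6 CPM in WB1P-Myc, and it was not called.

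Periostin links collagen, fibronectin and tenascin-C in the matrix. Postn (ENSMUSG00000027750, chromosome 3, 54361109 to 54391037) was already among the most abundant members in NFs, where CD26- cells measured 8887, 3676 and 6262 CPM and CD26+ cells 7155, 2047 and 4663 CPM. Its CAF means were 5087 to 6708 CPM, and it was not called in any edgeR comparison. Spondin 1 is a secreted adhesion protein with thrombospondin type 1 repeats. Spon1 (ENSMUSG00000038156, chromosome 7, 113765998 to 114043370) measured 1359, 721.7 and 1051 CPM in CD26- NFs and 2137, 2477, 2683, 3120 and 1828 CPM in WB1P CD26- CAFs, all above every control. It was higher by a log2 fold change of 1.23 (SE 0.42, FDR 0.0253), and the FDR was 0.0989 without control mouse 49 and 0.0735 without control mouse 44 and 0.0558 without WB1P mouse 14. It was 0.0518 in limma-voom with mouse as a random block and 0.0782 with double- libraries alone. The WB1P-Myc CD26- CAFs had 1513 ± 703 CPM and overlapped the NFs.

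In all, CD26- CAFs of WB1P mice differed from CD26- NFs in 7 of 10 members, 6 of them higher (17.6% of all genes tested were called higher) and 1 lower (17.8%). In WB1P-Myc CD26- CAFs 4 members were higher (19.1%) and 0 lower (17.5%). CD26+ CAFs were higher in 5 members in WB1P (17.4%) and in 5 members in WB1P-Myc (17.4%), with 0 lower (16.1% and 17.3%). At an unadjusted p under 0.05, 0 members were lower in these last 3 comparisons as well, and DESeq2 and limma-voom called 0 lower. The median log2 fold change of the 10 members was 1.08, 0.54, 0.97 and 0.99 in the 4 comparisons, where the medians of all genes lay between -0.009 and 0.02. Since the members were chosen with earlier results of these data known, these counts and medians describe them and are not a test against all genes. With both models given equal weight, CD26- CAFs had 4 higher members (20.4%) and 1 lower (21.0%), and CD26+ CAFs had 5 higher (20.1%) and 0 lower (21.1%). The 4 comparisons share the control mice, and without control mouse 44 the numbers of higher members fell to 3 in WB1P CD26-, 3 in WB1P CD26+ and 2 in WB1P-Myc CD26+ cells. In the last of these, 3 members were higher without WB1P-Myc mouse 21, 67 or 69. The share of all genes called with a mouse left out was not computed, so whether such falls are particular to the members was not tested. Without control mouse 49 the number of lower members was 0 in WB1P and 1 in WB1P-Myc CD26- cells. The lower member in WB1P-Myc was not Tnxb, which was called there in none of the 21 alternatives (lowest FDR 0.16). The pericyte genes moved with the CD26- comparisons, and their part in them was not tested. The plot of changes from control gives each fold change with its error.

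**Figure D2:**
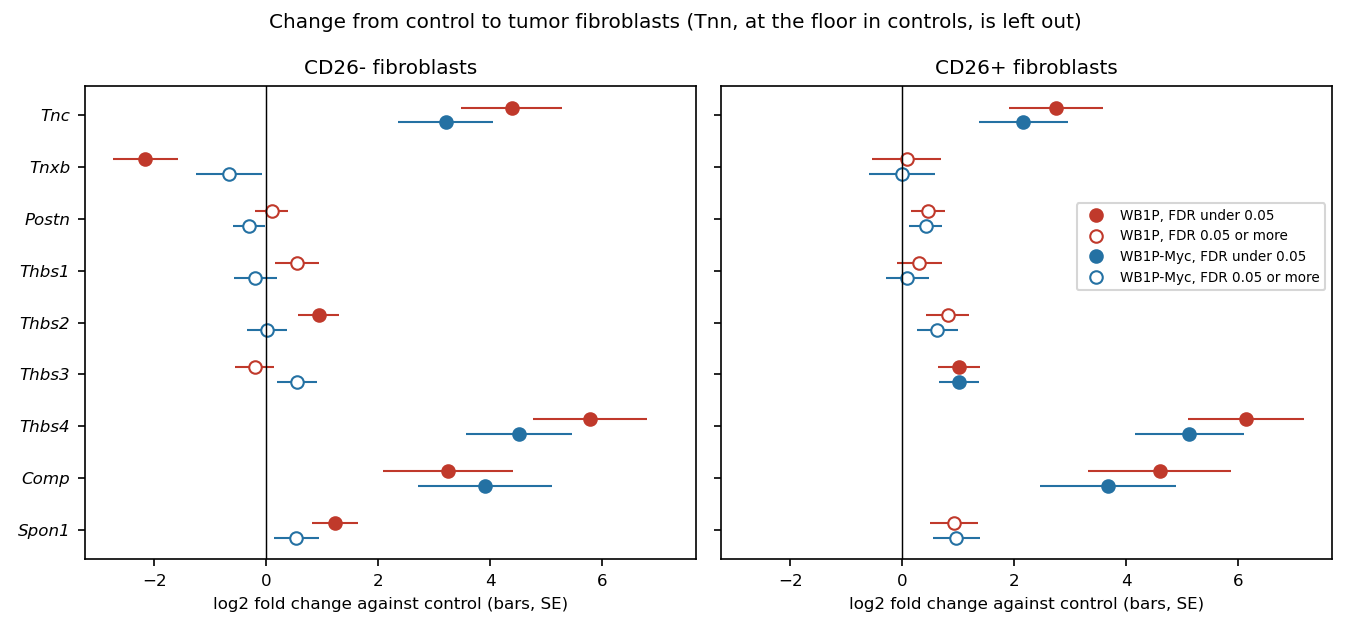
Log2 fold change of CAFs against NFs (x axis, bars show the SE) for 9 members (y axis) in CD26- (left) and CD26+ cells (right), with filled points at an FDR under 0.05. Tnc, Thbs4 and Comp are filled in both models and both classes, from 2.16 to 6.14, and Tnxb is filled and negative for WB1P in CD26- cells, at -2.16. Tnn is left out because it was at the floor in NFs.

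The ratio of Tnc to Tnxb was computed within each sum, on counts per kb of exon, so that it does not depend on the scaling between libraries. It was 0.0303 to 0.595 in CD26- NFs and 0.00291 to 0.463 in CD26+ NFs. It rose over 1 in all 10 CD26- CAF sums, with 14.8 to 153 in WB1P and 2.53 to 25.9 in WB1P-Myc. In CD26+ CAFs it was near 1, from 0.763 to 1.96 in WB1P and from 0.618 to 1.21 in WB1P-Myc. The CD26- CAFs of either model and the CD26- NFs did not overlap. The exon length of Tnxb was taken from GENCODE release M21, where its span differs from that in the table, and shifts all ratios alike.

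**Figure D3:**
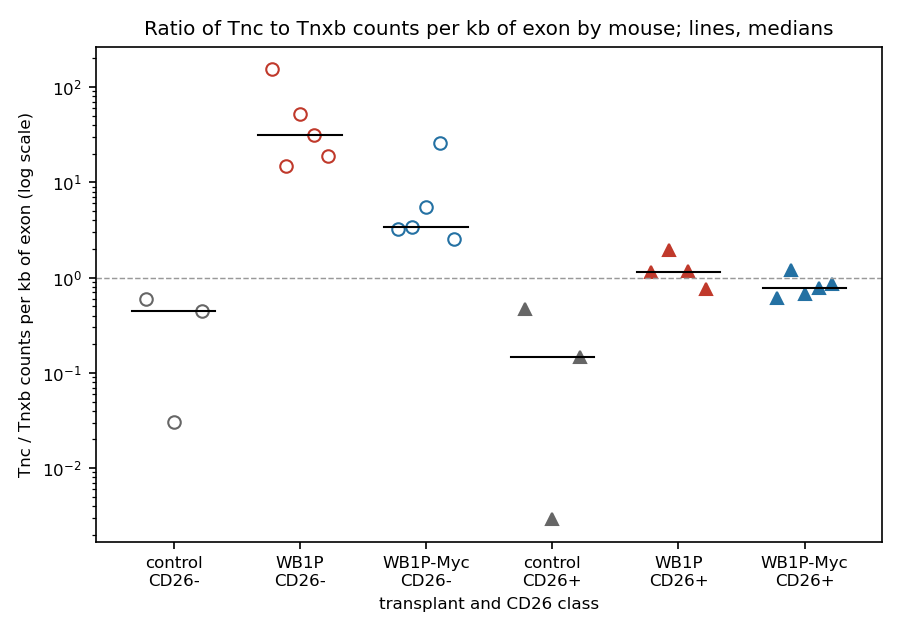
Ratio of Tnc to Tnxb counts per kb of exon (y axis, log scale) by transplant and CD26 class (x axis). Each point is 1 mouse, each line a median, and the dashed line marks equal levels. Medians are 0.447 in CD26- NFs, 31.6 in WB1P and 3.40 in WB1P-Myc CD26- CAFs, and 0.145, 1.15 and 0.782 in the CD26+ cells.

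WB1P and WB1P-Myc CAFs were then compared with each other. In CD26- CAFs, 1 member was lower in WB1P-Myc (0.307% of genes were called lower) and 0 were higher (0.205%). It was Tnn, with a log2 fold change of -3.24 (SE 0.62, FDR 0.0234) and no overlap between the 5 mice of each model. The call was lost when any of 6 mice was left out (FDR 0.0519 to 0.0679), in a fit of these groups alone (0.0977) and with the double- libraries alone (0.19). Tnc (log2 fold change -1.18, SE 0.64, FDR 0.402) and Tnxb (1.49, SE 0.53, FDR 0.196) were not called, although the 5 mice of WB1P all had more Tnc than the 5 mice of WB1P-Myc. In CD26+ CAFs edgeR called 0 members and 0% of genes in either direction, DESeq2 and limma-voom called 0 members, and at an unadjusted p under 0.05 Tnn was the only member, and it was lower in WB1P-Myc.

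The CD26 classes of the same mouse separated the members into groups. Tnxb and Thbs3 were higher in CD26+ cells, Spon1 and Tnn were higher in CD26- cells, and Postn, Thbs1 and Comp were not called between the classes. In WB1P, Tnxb was 5.83 to 11.0 times as high in the CD26+ as in the CD26- cells of the same mouse and Thbs3 4.42 to 6.35 times, in 4 of 4 mice each. The log2 fold changes were 3.31 (SE 0.58, FDR 0.000202) and 2.38 (SE 0.33, FDR 1.6e-05). Tnn was lower in CD26+ cells in 4 of 4 mice by a log2 fold change of -3.43 (SE 0.69, FDR 0.000773), and Spon1 in 4 of 4 by -2.22 (SE 0.39, FDR 0.000232). These 2 higher (13.0% of genes) and 2 lower members (13.0%) were called in all 22 alternatives run. In WB1P-Myc, Tnxb was higher by 1.73 (SE 0.53, FDR 0.0219) and Thbs3 by 1.63 (SE 0.31, FDR 0.000553) on the log2 scale, each in 5 of 5 mice. Spon1 was lower by -1.48 (SE 0.35, FDR 0.00389) in 5 of 5 mice, and Tnn by -1.91 (SE 0.59, FDR 0.025) in 4 of 5. The exception for Tnn was mouse 23, where CD26- cells had 5.84 CPM and CD26+ cells 6.54 CPM. The background was 9.29% higher and 10.7% lower, and the calls of Tnxb were lost without mouse 21, 95 or 23 (FDR 0.0703 to 0.103) and those of Tnn without mouse 21 or 67 (0.0529 and 0.139).

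In NFs only Spon1 was called between the classes, and it was lower in CD26+ cells (1 member, against 1.49% of genes lower, and 0 members higher, against 2.67%). It measured 478.6, 148.8 and 204.2 CPM in CD26+ NFs, below all CD26- NFs, with a log2 fold change of -1.91 (SE 0.46, FDR 0.0168). The FDR was 0.108 without control mouse 49 and 0.211 without control mouse 44. Tnxb was higher in the CD26+ NFs of 3 of 3 mice without overlap (log2 fold change 1.07, SE 0.67, FDR 0.561), and so was Thbs3 (1.17, SE 0.40, FDR 0.117). Over both tumor models with equal weight, 2 members were higher (19.1%) and 2 lower (19.9%) in CD26+ CAFs.

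Since the 2 classes come from the same mice, the comparisons were repeated with mouse as a block. In NFs, Thbs3 was then called higher (log2 fold change 1.3, SE 0.25, FDR 0.00483) beside the lower Spon1, where 5.71% and 5.83% of genes were called. In WB1P, Tnc was called lower in CD26+ CAFs in addition, by -1.32 (SE 0.37, FDR 0.0136), as it was in 4 of 4 mice, so that 2 members were higher (17.2%) and 3 lower (17.9%). In WB1P-Myc, Thbs4 (1.51, SE 0.31, FDR 0.00232) and Thbs2 (0.61, SE 0.20, FDR 0.0302) were called higher in addition, which gave 4 higher (15.2%) and 2 lower members (17.0%). Thbs4 was higher in the CD26+ cells of 5 of 5 WB1P-Myc mice, by 1.18 to 8.92 times, and of 4 of 4 WB1P mice, by 1.2 to 1.61 times. With both models together the block gave 3 higher (24.0%) and 3 lower members (25.5%). Rgs5, a marker of pericytes, had 577 to 4157 CPM in CD26- CAFs, at most 11.3 CPM in CD26+ CAFs and 15.5 to 38.8 CPM in CD26- NFs. Its part in the differences between the classes of CAFs was not tested.

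**Figure D4:**
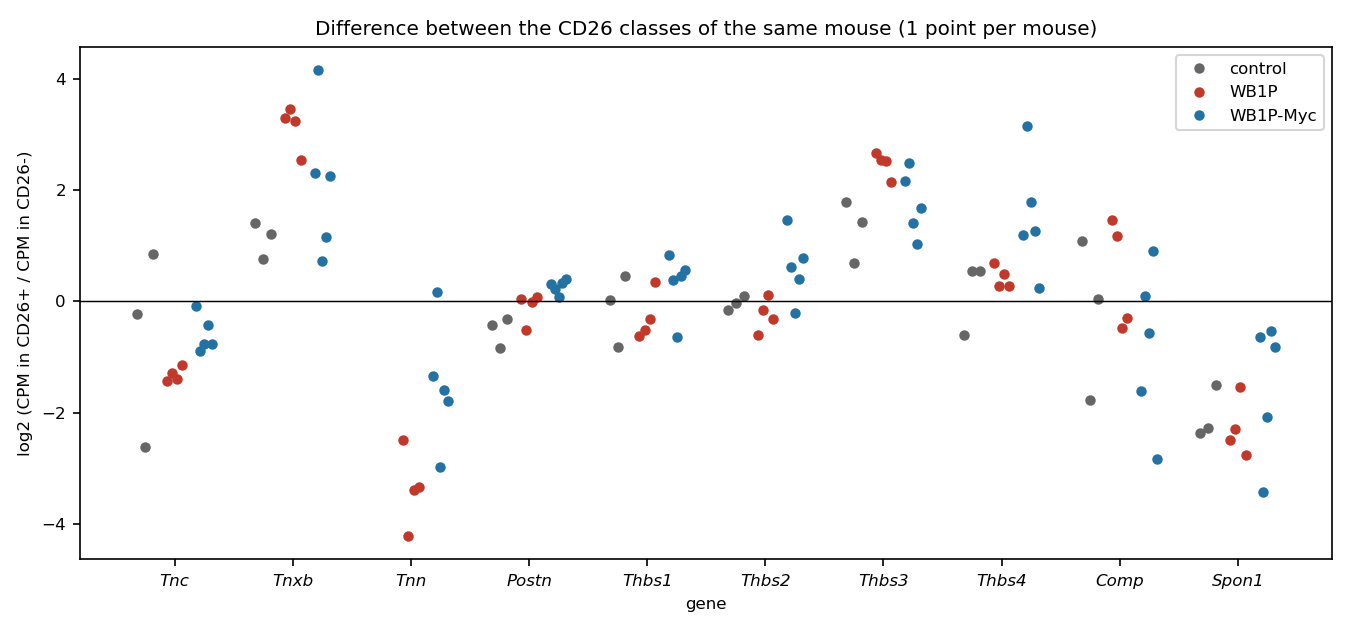
Log2 ratio of CPM in CD26+ to CD26- cells of the same mouse (y axis) for each member (x axis), 1 point per mouse, colored by transplant. Tnn is shown for CAFs only. All 12 mice lie above 0 for Tnxb and Thbs3 and below 0 for Spon1.

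Whether the change from NFs to CAFs differed between the classes was tested as an interaction, and 0 members were called in either direction (0.723% and 1.39% of genes), with 0 members at an unadjusted p under 0.05 in the fit without the block. The interaction was 1.45 for Tnxb (SE 0.77, FDR 0.449) and -1.34 for Tnc (SE 0.94, FDR 0.62) on the log2 scale, so that the lower Tnxb of CD26- CAFs was not shown to be particular to them. The CD26 difference was also not shown to differ between WB1P and WB1P-Myc, as 0 members and 0% of genes were called in either direction and Tnxb was the only member at an unadjusted p under 0.05 in the edgeR fit without the block. DESeq2 and limma-voom called 0 members in both interactions.

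With mouse as a block, 0 members were called in the first interaction (2.53% of genes higher and 3.55% lower), but 3 had an unadjusted p under 0.05. These were Postn (0.61, SE 0.21, FDR 0.105), Tnxb (1.49, SE 0.53, FDR 0.122) and Thbs3 (0.81, SE 0.29, FDR 0.125). The first interaction of Tnc was smaller with the block than without it, at -0.365 (SE 0.526, FDR 0.739). In the second, 0 members and 0% of genes were called with the block, and the members at an unadjusted p under 0.05 were Tnn (1.83, FDR 0.352), Thbs2 (0.86, FDR 0.472), Thbs3 (-0.72, FDR 0.538) and Thbs4 (1.08, FDR 0.556) in place of Tnxb (-1.05, FDR 0.626).

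The En1 lineage was compared in single libraries. Between En1+ and double- CAFs edgeR called 0 members and 0% of genes, between double+ and CD26+ CAFs 0 members (0.0193% of genes higher and 0% lower), and in NFs 0 members in either comparison (0.00642% higher and 0% lower in each). At an unadjusted p under 0.05, Comp was the only member in these 4 comparisons, in the first of them, and DESeq2 and limma-voom called 0. Set against the other library from its own animal and CD26 class, the En1-lineage library had less Comp in 19 of 19 pairs (7 CD26- and 6 CD26+ pairs of CAFs, and 3 and 3 of NFs). In the 4 WB1P mice with both CD26- populations it had 16.5, 2.2, 3.93 and 2.5 CPM in the En1+ and 39.7, 14.3, 13.9 and 12.8 CPM in the double- libraries (mice 93, 12, 14 and 35). The log2 fold change of En1+ against double- CAFs was -1.83 (SE 0.71, FDR 0.953, edgeR), and with mouse as a block it was -1.84 (SE 0.35, FDR 0.0379), where 0.00642% of genes were called higher and 0.0642% lower. Between double+ and CD26+ CAFs the block gave -1.18 (SE 0.34, FDR 0.757). Comp was singled out here after its values had been seen. Some mice gave a pair in each CD26 class, so the pairs are not all independent. Some pairs also rest on few reads. Both libraries together held 8 counts in CD26- and 7 in CD26+ cells of WB1P-Myc mouse 23, and 11 in CD26- cells of control mouse 44. No other member had the same direction in all pairs: Thbs2 was higher in the En1 lineage in 14 of 19 and Tnxb lower in 14 of 19, and in the 7 CD26- pairs of CAFs Tnc and Postn were higher in 7 of 7.

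**Figure D5:**
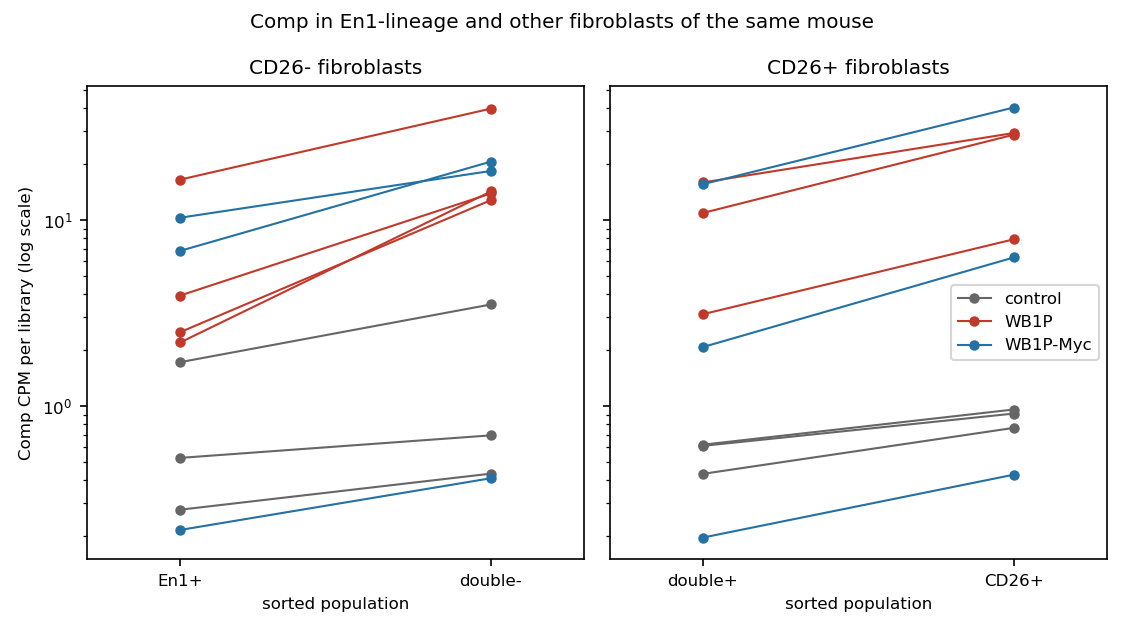
Comp CPM per library (y axis, log scale) in the sorted populations (x axis) of CD26- (left) and CD26+ cells (right), with a line joining the libraries of the same mouse. Every line is higher on the right of its panel, in the populations outside the En1 lineage, at levels from 0.197 CPM in WB1P-Myc mouse 23 to 40.2 CPM in WB1P-Myc mouse 69. Libraries without a partner are not drawn.

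Levels were compared between genes only per kb of exon. In CD26- NFs the order began with Postn (721 CPM per kb), Thbs1 (581) and Thbs2 (372), whose ranges overlapped, and ended with Thbs4 (3.63), Comp (0.414) and Tnn (0.00628), which were separate from each other. In WB1P CD26- CAFs Tnc came first (1015 CPM per kb), with a range that overlapped that of Thbs1 (848), while Thbs4 (200) and Tnn (97.6) stood above Tnxb (37.9) on average, with overlapping ranges between neighbours. In CD26+ CAFs of WB1P, Thbs1 (747), Postn (727) and Thbs2 (652) came first, and Tnc (436) and Tnxb (375) overlapped. Comp stayed at or under 6.26 CPM per kb on average in every group.

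The genes whose log2 CPM followed a member most closely over the 25 sums were listed as a description. The sums of a mouse share their animal, and the correlations reflect the 6 groups as well as single mice. Tnxb was followed by Efemp1 (r = 0.983), Clec3b (0.976) and Dpt (0.974), which encode other secreted or matrix proteins. Thbs4 was followed by Cilp (0.95), a gene of cartilage matrix, and Kcnma1 (0.918), Spon1 by Dkk3 (0.94), Cd59a (0.936) and Ptk7 (0.934), and Tnc by Ikbip (0.944), Prokr2 (0.943) and Gpc1 (0.942). Tnn was followed by Htr2b (0.971), Gm6093 (0.964) and Ecrg4 (0.945), and Thbs3 by Vsig8 (0.969), Ly6c1 (0.963) and Naaa (0.955). For Postn, Thbs1, Thbs2 and Comp the closest genes reached r of 0.857 (Megf6), 0.835 (Mast2), 0.916 (Ube2z) and 0.861 (Fgd5). Among the members, after the group means had been removed, Thbs4 and Comp varied together over the 19 CAF sums (r = 0.76), and among the WB1P-Myc CD26- sums mouse 23 was lowest and mouse 95 highest for both.

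Genes around the members were counted from lists, as a description, since the lists too were chosen with earlier results of these data known. Of all genes tested, 17.6% were called higher and 17.8% lower in WB1P CD26- CAFs, 19.1% and 17.5% in WB1P-Myc CD26- CAFs, 17.4% and 16.1% in WB1P CD26+ CAFs, and 17.4% and 17.3% in WB1P-Myc CD26+ CAFs. Of 18 other matricellular genes, 9 were higher and 2 lower in WB1P CD26- CAFs (list median 0.70, all genes 0.002, log2 fold changes), which is 50.0% and 11.1% of the list. The largest called changes were in Spp1, which encodes osteopontin (8.35, SE 1.02, FDR 2.52e-06), Tnr, the remaining tenascin (-5.84, SE 0.85, FDR 1.99e-05), Ccn2, the connective tissue growth factor (4.75, SE 0.57, FDR 2.33e-06), and Edil3 (4.11, SE 0.61, FDR 2.45e-05). In WB1P-Myc CD26- CAFs 7 were higher and 2 lower, with Spp1 (7.68, FDR 7.29e-06), Ccn5 (4.58, FDR 2e-04), Ccn3 (4.56, FDR 3.91e-05) and Ccn2 (4.51, FDR 5.73e-06) first. In CD26+ CAFs 7 were higher and 1 lower in either model, again led by Spp1, Ccn5, Ccn2 and Ccn3. Between the classes, Sparcl1 (-3.54 in WB1P, FDR 0.00033, and -4.11 in WB1P-Myc, FDR 3.63e-05) and Edil3 (-3.60, FDR 2.97e-05, and -2.29, FDR 0.000913) were lower in CD26+ CAFs. Spon2 (3.15, FDR 3.52e-05) and Ccn3 (3.02, FDR 0.00018) were higher in the CD26+ CAFs of WB1P. There 4 genes of the list were higher and 4 lower than in CD26- CAFs (22.2% each way), against 13.0% of all genes each way. In the CD26+ CAFs of WB1P-Myc 4 were higher (22.2%) and 5 lower (27.8%), against 9.29% and 10.7% of all genes.

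Of 17 receptors and binding partners, 4 were higher and 4 lower in the CD26- CAFs of each model, 5 and 5 in WB1P and 4 and 4 in WB1P-Myc CD26+ CAFs, with list medians from -0.12 to 0.21. A share of 23.5% each way in CD26- CAFs is near that of all genes. Itga8, an integrin subunit that binds tenascin-C, was lower in all 4 comparisons, by -2.91 (SE 0.53, FDR 0.000222) in WB1P and -2.73 (SE 0.53, FDR 0.000474) in WB1P-Myc CD26- CAFs. It was lower by -4.25 (SE 0.63, FDR 5.22e-05) and -5.03 (SE 0.60, FDR 6.4e-06) in CD26+ CAFs. Cd36, a receptor of thrombospondin 1, was lower in WB1P CAFs (-2.66, FDR 0.0268 in CD26- and -3.95, FDR 0.00737 in CD26+ cells). Bmp1, a procollagen protease that periostin binds, was higher in CD26- CAFs (1.51, FDR 9.2e-07 in WB1P and 1.17, FDR 2.4e-05 in WB1P-Myc).

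Of 12 TGF-beta ligands, latency proteins and response genes, 6 were higher and 2 lower in WB1P CD26- CAFs, 6 were higher in WB1P-Myc CD26- CAFs, and 4 in the CD26+ CAFs of each model. The share lower in WB1P CD26- CAFs (16.7%) was near that of all genes. Ltbp2, a latency protein homolog of elastic fibers, changed most, by 7.13 (SE 0.78, FDR 5.88e-07) and 7.23 (SE 0.78, FDR 8.36e-07) in CD26- and by 7.07 (SE 0.78, FDR 2.35e-06) and 6.81 (SE 0.77, FDR 3.43e-06) in CD26+ CAFs of WB1P and WB1P-Myc. Tgfb2 rose in CD26- CAFs (3.67, FDR 7.04e-05, and 2.19, FDR 0.00399). Of 8 genes of type I collagen and tendon-type matrix, 6 were higher and 1 lower in WB1P CD26- CAFs. Col12a1 (4.95, SE 0.65, FDR 6.03e-06), Col11a1 (4.03, SE 1.09, FDR 0.00624) and Fmod (3.83, SE 0.98, FDR 0.00415) were higher, and Dcn, which encodes the proteoglycan decorin, was lower (-2.17, SE 0.33, FDR 3.19e-05). In WB1P-Myc, CD26- CAFs had 3 higher and 1 lower gene of this list, and 4 were higher in the CD26+ CAFs of each model. The FDRs of these lists are edgeR's over all genes tested, and the lists' medians were 1.01, 0.72, 0.64 and 0.48 for TGF-beta and 1.00, 0.51, 0.90 and 0.79 for collagen and tendon-type genes in the 4 comparisons.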

How the data were processed

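Fibroblast libraries were made with TruSeq stranded mRNA. The labels name a HiSeq and a NovaSeq instrument and describe paired-end NovaSeq runs, and which library ran on which is not given in the sources used here. The deposited values are raw counts of reads per gene, made by the authors, whose processing notes name HISAT2 2.2.1 and GRCm38. The counter, its strand setting and the annotation are not given in the sources used here. A single line (of 55487) carried no gene name, with 0 counts. Of 55226 gene identifiers found in GENCODE M21, 54906 have the same coordinates.

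Counts were summed per mouse and CD26 class. Low-count genes were removed with filterByExpr, counts scaled by TMM (factors 0.78 to 1.153) and tested by edgeR's quasi-likelihood test (R 4.3.3, edgeR 4.0.16) over all groups, with 16601 genes for sums and 15584 for libraries. CPM are on effective library sizes; log2 CPM used a prior count of 2. Depth was 5790599 to 15240328 counts per library. P-values of the fits without a block measure the spread between sums or libraries, and treat those of the same mouse as independent. With mouse as a fixed block, they measure the spread of differences within mice. Alternatives used DESeq2 1.42.0 and limma 3.58.1, no filter, fewer groups, mouse blocks, one library per class, and each mouse left out. The labels give the mouse, so the classes pair: deviations from group means correlated at r of 0.237 to 0.668 over 12 pairs. None of 63 library pairs was a copy. The test was tested on simulated data: for WB1P against control CD26- cells (16030 genes), 198 of 200 changed genes were recovered, with 13 false calls. The simulation gave every gene the same dispersion and had no mouse effect. It checks that the code runs as meant, and does not measure power or error in the real counts.

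The members and lists were chosen with earlier results of these data known. All 10 members are named; of each list, the up to 4 called genes with the largest change per comparison could be named. Some genes that these rules would name are not reported here. Marker lists of fibroblasts, pericytes, smooth muscle, epithelium, immune cells, endothelium, Schwann cells, adipocytes, tendon and cartilage, skeletal muscle and platelets were summed.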

Additional observations from a re-analysis of the deposited data

Results flagged for a closer look

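In 40 groups of 4 or 5 mice (10 members, 4 groups of CAFs), 4 had a mouse far from the others of its group, where chance gives about 2. Comp was highest in WB1P mouse 93 in CD26- cells, at 29.1 CPM with the next mouse at 8.68 CPM, and in WB1P-Myc mouse 95 in CD26- cells, at 52.5 CPM with the next at 14.1 CPM. Thbs1 was highest in WB1P mouse 93 in CD26+ cells, at 8068 CPM with the next at 3598 CPM. Postn was highest in WB1P-Myc mouse 69 in CD26- cells, at 6174 CPM with the next at 5024 CPM.

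The CD26 classes differed in opposite directions for Postn in control and WB1P-Myc mice. The ratio of CD26+ to CD26- cells was at most 0.805 in the 3 control mice and at least 1.06 in the 5 WB1P-Myc mice. This difference between control and WB1P-Myc alone was not tested. Over both tumor models, the interaction for Postn had an edgeR FDR of 0.608, and of 0.105 with mouse as a block.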

How the results depend on the processing

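The 41 fold changes recomputed under the alternatives were chosen mostly because they were called in the reported fit or with mouse as a block. None of them changed direction, which this choice makes likely in advance. Tnc between the classes in NFs was not among them. Its log2 fold change was 0.42 in the edgeR fit without a block and -0.59 with mouse as a block. Of the 876 recomputed values, 787 kept their side of the threshold, 79 lost and 10 gained the call, and the cause was not tested. With each mouse left out in turn, the number of members higher against control ranged from 3 to 6 (WB1P CD26-), 3 to 5 (WB1P-Myc CD26-), 3 to 7 (WB1P CD26+) and 2 to 6 (WB1P-Myc CD26+), and the number lower from 0 to 1 in the CD26- cells of each model. With both models together, 3 to 7 were higher in CD26+ and 0 to 1 lower in CD26- CAFs. These ranges have no share of all genes beside them, so whether they are particular to the members was not tested. Between WB1P-Myc and WB1P CD26- CAFs, 0 to 1 were lower, and 0 in a fit of only these groups or with only double- and double+ libraries. Between the classes, 0 to 1 were lower in NFs, and 1 to 2 were higher and 1 to 2 lower in WB1P-Myc. In fits of only the groups compared, 0 were lower in NFs between the classes, 1 in WB1P-Myc between the classes and 0 in CD26- CAFs of both models against control. Without the mice marked 8x8, 1 member was higher in CD26+ than in CD26- WB1P-Myc CAFs. With mouse as a paired block, fixed or random, 1 member was higher in CD26+ than in CD26- NFs and 4 in CD26+ than in CD26- WB1P-Myc CAFs, and the fixed block called 1 lower in En1+ CAFs; no other number of calls moved by over 1.5 times under it. At this depth Tnn in NFs, at 3 counts per class, and Comp in NFs rest on few reads.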

Other observations

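Smooth muscle genes summed to 621 to 1751 CPM in CD26- CAFs and 80.9 to 134 CPM in CD26- NFs. In CD26+ cells they summed to 115 to 260 CPM in CAFs and 9.78 to 80.6 CPM in NFs. Epithelial genes summed to at most 168 CPM, immune genes to at most 228 CPM, endothelial genes to at most 69.2 CPM, Schwann cell genes to at most 50.0 CPM, adipocyte genes to at most 10.6 CPM and platelet and megakaryocyte genes to at most 50.3 CPM in any sum. En1 measured 5.73 to 13.8 CPM in NFs and 6.07 to 67.2 CPM in CAFs. Thbs1, which platelets store in large amounts, stood beside Pf4 and Ppbp at no more than 1.19 and 0.946 CPM. The 4 platelet and megakaryocyte genes together summed to 29.9 to 50.3 CPM in NFs and to 3.26 to 20.9 CPM in CAFs. Their part in Thbs1 was not tested.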
